A study of Rattus norvegicus with 18 samples.

Results

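The comparison described here sets 3 arrays of rats with hot-model adjuvant arthritis that were given the herbal formula WTD (AIA-hot-WTD) against 3 arrays of rats with the same arthritis model and no such treatment (AIA-hot). The 6 arrays were chosen by their group labels and are 6 of the 18 arrays of the series, which holds 6 groups of 3. All 18 arrays carry knee synovial RNA of male Lewis rats of 6 to 8 weeks. The labels describe a study of 78 rats in 10 groups, with 6 rats stated per group. Both groups compared here share adjuvant-induced arthritis (AIA) and the hot model, and differ by WTD. The labels do not say how the hot model was made, nor the dose and timing of WTD. The design text of the series is aimed at a cold form of arthritis, and the hot model is the other arm that received the formula.

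Adjuvant arthritis is an immune-mediated inflammation of the joints that follows injection of mycobacterial adjuvant into a susceptible strain such as Lewis. The synovium is the lining of the joint. Its fibroblasts and macrophages make lubricating fluid in health, and in arthritis it takes in leukocytes and becomes a source of cytokines, chemokines and matrix-degrading enzymes. WTD is known as Wu-tou decoction, a formula with aconite root and ephedra that is used in Chinese medicine for painful joints. Knee synovium lies against a fat pad, muscle, cartilage and marrow-filled bone, so genes of those tissues are a measure of what each dissected sample held.

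The labels call each array a biological sample but do not tie arrays to animals, so p-values measure only the spread between arrays, which may be partly technical. The title codes of the 3 AIA-hot-WTD arrays carry the letters D (replicate 1), G (replicate 2) and Z (replicate 3), which nothing in the labels explains. The arrays lay on 5 glass slides: the 3 AIA-hot-WTD arrays shared slide 3 with AIA-hot replicate 3, while AIA-hot replicates 1 and 2 were on slide 2. Treatment and slide therefore overlap in part, and the median of each gene list below is also given against AIA-hot replicate 3 alone, a single array. The cold groups, set beside the hot ones below, were split too: AIA-cold-WTD replicates 2 and 3 were alone on slide 5. AIA-cold-WTD replicate 1 and the 3 AIA-cold arrays were on slide 4. The 75th percentile of the signal was 217 to 354 units on the AIA-hot-WTD arrays and 277 to 315 on the AIA-hot arrays. The share of probes well above background was 62.6% to 67.3% on the AIA-hot-WTD arrays and 56.9% to 63.8% on the AIA-hot arrays. Control replicate 1 was dimmer, with a 75th percentile of 72.7 units. It enters only the values against controls and the shared estimate of spread, on which every SE and p below rests. Prg4, which encodes the joint lubricant lubricin and marks the synovial lining, was bright on all 6 arrays, at 7.01, 7.49 and 7.49 in AIA-hot-WTD and 6.87, 7.27 and 7.63 in AIA-hot. These and all values below are log2 signals relative to the 75th percentile of their array, so that 0 is the brightness of that percentile. They compare a gene between arrays and not 1 gene with another. The number of arrays limits the precision.

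The probes below are shown because the results below turn on them: both probes of Zbtb16, which read differently, and the probes of Pla2g2a and Alox15b. Each is an Agilent probe of 60 bases, given as the array files give it, with rat rn4 coordinates, in lower case with no base marked.
Zbtb16, brighter probe, chr8:51934505-51934564, minus strand: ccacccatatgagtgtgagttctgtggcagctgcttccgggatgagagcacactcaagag
Zbtb16, dimmer probe, chr8:52091263-52091322, minus strand: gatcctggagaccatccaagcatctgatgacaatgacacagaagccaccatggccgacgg
Pla2g2a, chr5:157657033-157657092, plus strand: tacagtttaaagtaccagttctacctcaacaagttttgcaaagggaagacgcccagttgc
Alox15b, chr10:55952102-55952161, minus strand: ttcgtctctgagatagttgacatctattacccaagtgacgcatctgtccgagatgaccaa
The starts of the Zbtb16 probes lie 157 kb apart.

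No gene differed between AIA-hot-WTD and AIA-hot after adjustment over all genes. Of 23602 genes or transcripts tested by limma, 0 (0%) passed a Benjamini-Hochberg adjusted p of 0.05, and the smallest adjusted p was 0.9997. With slide as a fixed block, which leaves AIA-hot replicate 3 as the comparison, 5 genes were called lower, and without control replicate 1 in the fit 1 gene was called higher. At an unadjusted p under 0.05 there were 547 (2.32%), of which 270 (1.14%) were higher in AIA-hot-WTD and 277 (1.17%) lower. Without control replicate 1 in the fit there were 1003, and the smallest limma adjusted p was 0.0201, so these values depend on an array outside the comparison. For the fit of all 18 arrays, the plot of p over all genes shows fewer genes in its lowest bin than in any other. The difference was above 0 for 46.3% of genes, with a median of -0.02. The median gene had an unadjusted 95% interval reaching 0.52 to either side of its difference, with 3 arrays a group. Adjustment over all genes asks for more than that, so larger changes could also go uncalled. Arrays of a group spread about equally, with a median SD of 0.20 in AIA-hot-WTD and 0.23 in AIA-hot (n = 3 each).

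**Figure D1:**
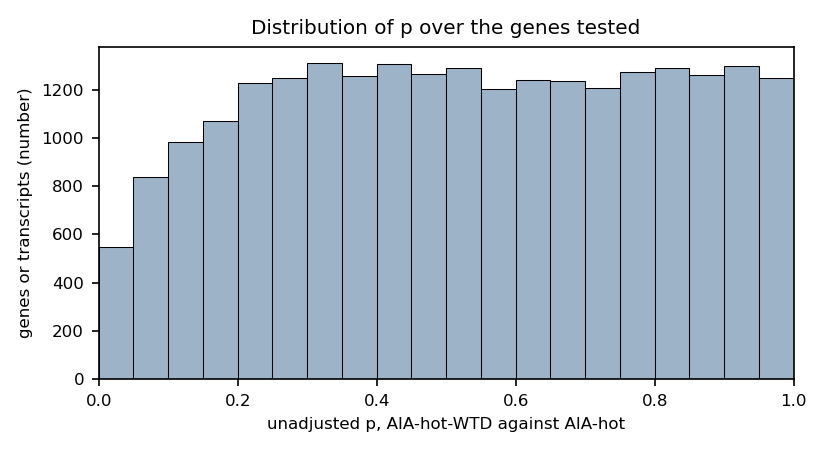
Number of genes or transcripts (vertical axis) by unadjusted limma p for AIA-hot-WTD against AIA-hot (horizontal axis, bins of width 0.05). The lowest bin holds 547 and the highest bar 1312, so that small p-values are not in excess.

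A second way to read 3 arrays against 3 is to ask for which genes the groups do not overlap. The 3 AIA-hot-WTD arrays all lay above the 3 AIA-hot arrays for 578 genes (2.45%), and all lay below them for 1158 genes (4.91%). These shares are the background for every count of non-overlapping genes below. AIA-hot replicate 3 lay nearer AIA-hot-WTD replicates 1 and 3 than the other AIA-hot arrays did. Across 23603 genes, which are not independent replicates, it correlated at 0.987, 0.977 and 0.985 with AIA-hot-WTD replicates 1, 2 and 3. AIA-hot replicate 1 correlated with them at 0.976, 0.978 and 0.976, and AIA-hot replicate 2 at 0.968, 0.968 and 0.970. AIA-hot replicate 3 correlated at 0.974 and 0.964 with AIA-hot replicates 1 and 2. It was the AIA-hot array closest to the AIA-hot-WTD mean for 46.5% of genes, against 30.3% for replicate 1 and 23.2% for replicate 2. Whether this reflects the shared slide or the tissue cannot be told apart. Without AIA-hot replicate 3, 1804 genes had an unadjusted p under 0.05 and the smallest adjusted p was 0.0755.

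Zbtb16, a zinc-finger transcription factor gene known for its induction by glucocorticoids, had the third smallest p among named genes higher in AIA-hot-WTD. Its brighter probe read 0.07, -0.71 and -0.39 in AIA-hot-WTD, against -1.16, -3.03 and -1.59 in AIA-hot. All 3 treated arrays lay above all 3 untreated ones, and the difference was 1.58 ± 0.45 (SE; limma adjusted p = 0.9997), or 3.00-fold. Against AIA-hot replicate 3 alone the difference was 1.24. The dimmer Zbtb16 probe read -1.77, -1.57 and -2.66 in AIA-hot-WTD and -2.64, -2.90 and -2.41 in AIA-hot. The groups overlapped on that probe, with a difference of 0.65. In the cold model the brighter probe differed by -0.55 between AIA-cold-WTD and AIA-cold, and the difference between the effects in the 2 models was 2.13 ± 0.64 (SE; limma adjusted p = 0.989).

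Other glucocorticoid-induced genes were not all on the side of Zbtb16. Fkbp5, which encodes a co-chaperone of the glucocorticoid receptor and is a standard target of it, read 4.03, 3.47 and 3.31 in AIA-hot-WTD, against 2.99, 3.67 and 2.84 in AIA-hot. The groups overlapped (difference 0.44 ± 0.35, SE). Cebpd, a transcription factor gene induced by glucocorticoids and by cytokines, read 4.14, 3.81 and 3.59 in AIA-hot-WTD and 4.80, 5.52 and 3.60 in AIA-hot, a difference of -0.79 ± 0.34 (SE) with overlap. Of 17 measured genes of this list, 8 were higher and 9 lower in AIA-hot-WTD, with a median difference of -0.06, close to the -0.02 over all genes, and 0.05 against AIA-hot replicate 3.

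Pla2g2a encodes the secreted group IIA phospholipase A2, which releases arachidonic acid, the precursor of prostaglandins and leukotrienes, and which is abundant in joint fluid of people with arthritis. It read 1.96, 1.79 and 2.43 in AIA-hot-WTD, against 0.31, 1.11 and 1.53 in AIA-hot. The groups did not overlap, and the difference was 1.07 ± 0.42 (SE; limma adjusted p = 0.9997). Against AIA-hot replicate 3 it was 0.53. In the cold model Pla2g2a differed by -0.84 under WTD. All other measured eicosanoid genes overlapped. The cyclooxygenase gene Ptgs1 differed by 0.16 ± 0.19 (SE), the prostaglandin E synthase gene Ptges by -0.01 ± 0.31 and the leukotriene enzyme gene Alox5 by 0.50 ± 0.34. At the low end, Hpgd, which encodes the dehydrogenase that inactivates prostaglandins, read 0.41, 0.59 and 0.54 in AIA-hot-WTD and 2.30, 1.85 and -0.16 in AIA-hot (difference -0.82 ± 0.60, SE). Of 23 measured members 17 were higher and 6 lower, with a median of 0.16, and 0.14 against AIA-hot replicate 3. The inducible cyclooxygenase gene Ptgs2 did not pass the filter on dim probes and was not tested.

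Among genes lower in AIA-hot-WTD, Crispld2 had the smallest p. It encodes a secreted protein that binds bacterial lipopolysaccharide. It read 5.44, 5.43 and 5.57 in AIA-hot-WTD, against 7.01, 7.75 and 5.65 in AIA-hot. The treated arrays were tightly grouped and lay below all 3 untreated arrays, but AIA-hot replicate 3 was only just above them. The difference was -1.32 ± 0.37 (SE; limma adjusted p = 0.9997), and -0.17 against AIA-hot replicate 3.

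Msln, the gene of mesothelin, a surface protein of the cells that line body cavities, read -2.05, -1.84 and -0.66 in AIA-hot-WTD, against 2.02, 1.16 and -0.15 in AIA-hot. The groups did not overlap, and the difference was -2.53 ± 0.72 (SE; limma adjusted p = 0.9997), or -1.37 against AIA-hot replicate 3. Sel1l3, well above background on 2 of the treated arrays, read -4.52, -3.15 and -3.12 in AIA-hot-WTD, against -0.67, -0.07 and -2.49 in AIA-hot. Lhx9, a LIM-homeobox transcription factor gene of limb and gonad development, read -2.41, -2.21 and -2.23 in AIA-hot-WTD and -0.45, -0.19 and -1.67 in AIA-hot. In each of these genes AIA-hot replicate 3 was the untreated array nearest the treated ones.

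In Rspo2, AIA-hot replicate 3 lay with the other untreated arrays. The gene encodes R-spondin 2, a secreted enhancer of Wnt signalling. It read -1.98, -1.92 and -2.15 in AIA-hot-WTD, against -1.26, -1.53 and -1.25 in AIA-hot. The groups were narrow and did not overlap (difference -0.67 ± 0.22, SE; limma adjusted p = 0.9997), and the difference from AIA-hot replicate 3 alone was -0.77. In the cold model Rspo2 differed by 0.65 under WTD. Wnt11, a Wnt ligand gene, was well above background on 2 AIA-hot-WTD arrays and 0 AIA-hot arrays. It read -3.49, -3.72 and -3.16 in AIA-hot-WTD and, below background, -4.33, -4.82 and -4.13 in AIA-hot, and was at least 1.32-fold higher (limma adjusted p = 0.9997). Such a bound sets the mean of the brighter group against, on each array of the dimmer group, the higher of the probe's own signal and the lowest signal well above background. Wnt5b, another ligand gene, read 0.43, 1.22 and 1.20 in AIA-hot-WTD and 2.81, 3.01 and 0.86 in AIA-hot, where AIA-hot replicate 3 lay among the treated arrays. The 18 measured Wnt and hedgehog modulators had a median difference of 0.07, with 10 higher and 8 lower, and 0.35 against AIA-hot replicate 3.

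The remaining genes with the smallest p in each direction were small or dim differences. Rnf25, a ubiquitin ligase gene, read 1.79, 2.00 and 1.79 in AIA-hot-WTD against 2.14, 2.35 and 2.12 in AIA-hot. Desi2, a gene for a protease that removes SUMO, read 0.87, 0.85 and 0.78 in AIA-hot-WTD against 1.16, 1.28 and 1.04 in AIA-hot. These are differences of -0.34 ± 0.11 and -0.33 ± 0.11 (SE), and neither group's arrays overlapped the other's. Zmynd19 (-0.52), Pxylp1 (-0.68), which encodes a phosphatase of glycosaminoglycan synthesis, and Fastkd5 (-0.59), a gene of mitochondrial RNA processing, also lay lower on all 3 treated arrays. Pgap6 (-0.83) read -1.05, -1.16 and -1.01 in AIA-hot-WTD against 0.07, 0.21 and -1.01 in AIA-hot, and its difference from AIA-hot replicate 3 alone was -0.07. The centromere gene Cenpm (-0.94) and the zinc-finger gene Zfp69 (-1.17) were lower without overlap, but were well above background on only 2 and 1 of the treated arrays.

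Oit3 stood well above background on 0 treated and 3 untreated arrays. Its signal was at least 1.67-fold lower in AIA-hot-WTD (limma adjusted p = 0.9997). Gria2, a glutamate receptor gene, had a small p but was well above background on 0 arrays of either group, so no fold is given. In the other direction, Olr1093, the gene with the smallest p of those higher, was well above background on 2 AIA-hot-WTD arrays and 0 AIA-hot arrays, and its bound did not exceed 1. Ccdc18 (1.09), Sgsm1 (0.65), Krba1 (0.64), the autophagy gene Rubcn (1.16) and the zinc-finger gene Zfp568 (1.61) lay higher on all 3 treated arrays. So did Caly (0.75). C5h1orf159, Ecel1 and the cytochrome P450 gene Cyp2s1 were, like Olr1093, well above background on 2 AIA-hot-WTD arrays and 0 AIA-hot arrays, with bounds that did not exceed 1, so no fold is given.

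Of the rest of that set, Cd177, Icam4 and Nrap are genes of blood or muscle cells, and Aqp3 is a channel gene. Cd177, a surface glycoprotein gene of neutrophils, was well above background on 3 AIA-hot-WTD arrays and 0 AIA-hot arrays, and at least 5.30-fold higher in AIA-hot-WTD (limma adjusted p = 0.9997). It read -2.36, 0.09 and -2.11 in AIA-hot-WTD and, below background, -5.97, -3.78 and -6.16 in AIA-hot. Icam4, a blood group antigen gene of red cells, read -3.15, -2.13 and -3.32 in AIA-hot-WTD and -3.89, -4.36 and -3.34 in AIA-hot. Nrap, an anchoring protein gene of striated muscle, read -1.78, -2.16 and 0.70 in AIA-hot-WTD and -2.83, -2.93 and -2.40 in AIA-hot. Aqp3, the gene of a water and glycerol channel, was well above background on 3 treated and 0 untreated arrays and at least 2.30-fold higher (limma adjusted p = 0.9997), with readings of -4.40, -0.73 and -2.87 in AIA-hot-WTD and, below background, -5.43, -5.88 and -5.98 in AIA-hot. Cd177, Icam4 and Aqp3 were each highest on AIA-hot-WTD replicate 2, and Nrap on replicate 3.

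**Figure D2:**
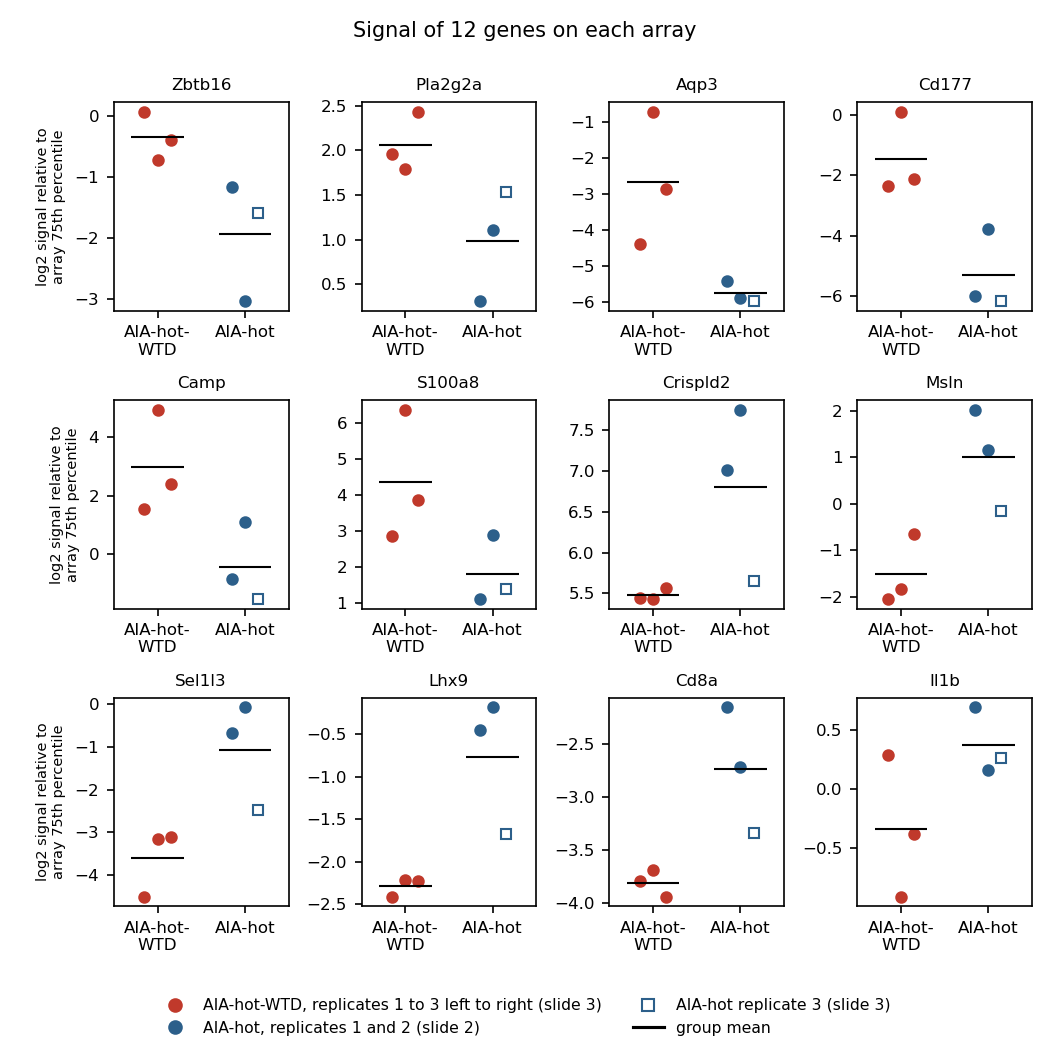
Log2 signal relative to the array's 75th percentile (vertical axes, scaled per gene) of 12 genes on each of 6 arrays, with AIA-hot-WTD left and AIA-hot right. Horizontal lines are group means, and the open square is AIA-hot replicate 3, which shared a slide with the treated arrays. For Crispld2 that square (5.65) sits beside the treated arrays (5.43 to 5.57), while for Zbtb16 (-1.59) it lies with the untreated ones.

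Gene lists were read by counts and medians, with no test. In all 40 lists together 621 of 753 members were tested and 0 passed the adjusted threshold, as 0% did over all genes. RNA of a whole tissue does not separate fewer cells of a type from less RNA per cell. The lists of neutrophil genes and of red cell precursor genes had the largest medians. Neutrophil alarmin and granule genes had a median difference of 2.18, with 10 of 10 measured members higher in AIA-hot-WTD, and 5 of the 10 without overlap, where 2.45% of all genes were higher without overlap. With Mmp9, below background on each untreated array, set at its bound, the median was 2.04. The 5 were Camp, Prtn3, RatNP-3b, Np4 and S100a9. Camp, the gene of the antimicrobial peptide cathelicidin, read 1.56, 4.95 and 2.42 in AIA-hot-WTD, against -0.85, 1.11 and -1.53 in AIA-hot (difference 3.40 ± 1.48, SE). S100a8, one subunit of the alarmin calprotectin, read 2.86, 6.36 and 3.86 in AIA-hot-WTD and 1.10, 2.87 and 1.38 in AIA-hot. Its partner S100a9 read 3.50, 6.65 and 4.43 in AIA-hot-WTD and 2.13, 3.50 and 2.44 in AIA-hot. S100a8 overlapped, and S100a9 ties at 3.50 as rounded here, between AIA-hot-WTD replicate 1 and AIA-hot replicate 2.

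The neutrophil list averaged 0.31, 3.59 and 1.18 on AIA-hot-WTD replicates 1, 2 and 3, against -0.71, 0.04 and -1.05 on the AIA-hot arrays. All 3 treated arrays exceeded the untreated ones, replicate 2 by far the most. Without AIA-hot-WTD replicate 2 the median was 1.20, still with 10 of 10 higher, and against AIA-hot replicate 3 alone it was 2.69, with 9 of 10 higher. In the cold model the same genes had a median of 1.83 under WTD, with 9 of 10 higher. Within the AIA-cold-WTD arrays they averaged -0.77, 2.28 and 3.54, and within the AIA-cold arrays -1.07, -0.83 and 1.49, so those groups overlapped. The averages of 2.28 and 3.54 came from a slide that held no AIA-cold array.

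Genes of red cell precursors were arranged like the neutrophil genes. All 9 measured members were higher in AIA-hot-WTD, with a median of 1.74, which was 1.09 without AIA-hot replicate 2, with 8 of 9 higher. Rhag, a red cell membrane gene, read -2.95, 1.11 and -2.09 in AIA-hot-WTD. It was well above background on 3 treated and 0 untreated arrays and at least 5.87-fold higher (limma adjusted p = 0.9997). Ahsp, which encodes a chaperone of haemoglobin, read 2.77, 6.03 and 3.38 in AIA-hot-WTD and 1.46, 1.34 and 2.57 in AIA-hot. The mature haemoglobin gene Hbb-b1 read 8.55, 8.69 and 8.31 in AIA-hot-WTD and 8.22, 7.66 and 8.66 in AIA-hot, and overlapped. The list's median against AIA-hot replicate 3 alone was 0.39, with 6 of 9 higher. Mcpt8, a protease gene of basophils in rodents, read -1.10, 0.86 and -1.31 in AIA-hot-WTD and -2.49, -2.85 and -1.82 in AIA-hot, again highest on AIA-hot-WTD replicate 2. It had the largest difference (1.87) in the mast cell list, which split. Of 10 measured members 5 were higher and 5 lower, with a median of 0.01, and 0.16 against AIA-hot replicate 3. Cpa3 and Tpsb2 of that list differed by -0.40 and -0.39.

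Bone genes were high on the same array. The osteoblast list averaged -2.99, 0.38 and -1.97 in AIA-hot-WTD and -2.49, -2.25 and -3.61 in AIA-hot. Bglap, the gene of osteocalcin, read -1.16, 6.36 and 0.36 in AIA-hot-WTD, against -1.60, -1.55 and -2.20 in AIA-hot. The osteoblast median of 0.68 became 0.16 without AIA-hot-WTD replicate 2 and 0.31 without AIA-hot replicate 3, each with 5 of 10 higher. Against AIA-hot replicate 3 alone it was 1.45. Mmp9, a gelatinase gene of neutrophils and osteoclasts, read -5.39, 0.25 and -2.21 in AIA-hot-WTD, where it was well above background on 2 arrays. On the AIA-hot arrays it was well above background 0 times. The osteoclast list, which includes Mmp9, split, with 2 of 4 measured members higher and 2 lower. Its median was 0.24, and 0.50 against AIA-hot replicate 3. Acp5 of that list differed by 0.50 and Ctsk by -0.41. Bone, red cell precursor and neutrophil genes thus shared their highest treated array, and the part of bone or marrow tissue in these differences was not tested.

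Skeletal muscle genes were high on another treated array. They averaged -1.06, -1.15 and 2.95 on AIA-hot-WTD replicates 1, 2 and 3 and -0.50, -1.42 and -0.06 on the AIA-hot arrays. The muscle creatine kinase gene Ckm read -1.19, -2.05 and 4.89 in AIA-hot-WTD and -0.28, -3.92 and 0.75 in AIA-hot. The list's median difference of 0.85, with 20 of 22 members higher, became -0.51 without AIA-hot-WTD replicate 3, with 5 of 22 higher. It was 0.38 against AIA-hot replicate 3 alone. The part of attached muscle in the difference was not tested. Cartilage genes also split the treated group. Of 12 measured members 5 were higher and 7 lower, with a median of -0.44, which was 0.66 against AIA-hot replicate 3 and 0.17 without AIA-hot-WTD replicate 1. Col2a1, the main collagen of cartilage, read -2.32, 5.55 and 4.08 in AIA-hot-WTD and -1.53, 0.84 and -1.94 in AIA-hot, and the other Col2a1 probe gave a difference of 0.19 where this one gave 3.31. Comp, the gene of cartilage oligomeric matrix protein, lay on the other side, at 4.89, 5.00 and 5.45 in AIA-hot-WTD and 7.46, 7.83 and 4.60 in AIA-hot, as did Col11a1, a minor fibrillar collagen gene of cartilage (-2.33).

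**Figure D3:**
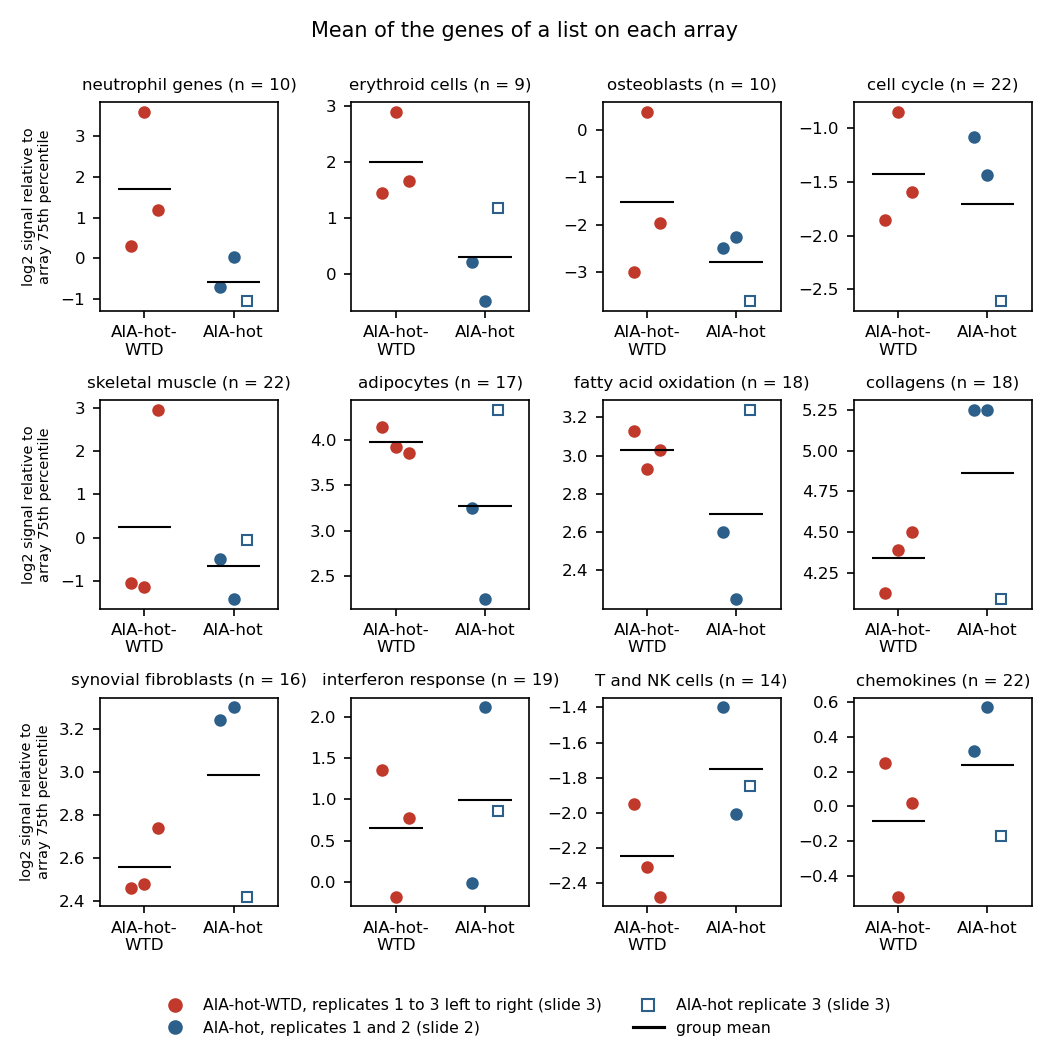
Mean log2 signal relative to the array's 75th percentile (vertical axes, scaled per panel) of the tested genes of 12 lists on each array, AIA-hot-WTD left and AIA-hot right, with lines at the group means; n is the number of genes. Neutrophil, red cell precursor and osteoblast means peak on AIA-hot-WTD replicate 2 (3.59, 2.89 and 0.38), the muscle mean on replicate 3 (2.95), and for adipocytes and collagens AIA-hot replicate 3 (open square) lies beyond or beside the treated arrays.

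Fat genes were uniformly higher in AIA-hot-WTD than in the average AIA-hot array. All 17 measured adipocyte genes differed in that direction, with a median of 0.71 and a range of 0.24 to 0.98, where 46.3% of all genes were higher, and 0 of the 17 were without overlap. Pparg, the master regulator gene of fat cells, read 2.37, 2.13 and 2.20 in AIA-hot-WTD and 1.13, 0.28 and 2.35 in AIA-hot. Adipoq, the gene of the fat hormone adiponectin, read 7.75, 7.54 and 7.77 in AIA-hot-WTD and 7.06, 6.19 and 8.00 in AIA-hot. In both, AIA-hot replicate 3 lay with or above the treated arrays and replicate 2 was far below. Against AIA-hot replicate 3 alone the list's median was -0.39, and 0 of 17 genes were higher. Without AIA-hot replicate 2 it was 0.19. The direction of the adipocyte difference thus depended on which AIA-hot arrays were used.

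The genes of mitochondrial energy use followed the fat genes. All 18 fatty acid oxidation genes were higher, with a median of 0.33, and 25 of 26 respiratory chain genes, with a median of 0.23. Acaa2, a thiolase gene of fatty acid oxidation, read 1.76, 1.97 and 2.20 in AIA-hot-WTD and 1.12, 0.84 and 2.04 in AIA-hot. Atp5f1b, an ATP synthase subunit gene, read 3.40, 3.41 and 3.57 in AIA-hot-WTD and 2.78, 2.41 and 3.45 in AIA-hot. Against AIA-hot replicate 3 the medians were -0.22 and -0.18, and without AIA-hot replicate 2 they were 0.10 and 0.05. Fatty acid and triglyceride synthesis genes had a median of 0.55, with 15 of 17 higher, and -0.17 against AIA-hot replicate 3.

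Matrix and fibroblast genes lay on the other side. Among collagens and related matrix genes outside cartilage 15 of 18 were lower in AIA-hot-WTD, with a median of -0.47. The list averaged 4.13, 4.39 and 4.50 in AIA-hot-WTD, against 5.25, 5.25 and 4.09 in AIA-hot. Col12a1, a fibril-associated collagen gene, read -4.07, -1.67 and -2.20 in AIA-hot-WTD and 0.59, 0.76 and -2.70 in AIA-hot. Lox, which crosslinks collagen, read 3.21, 2.99 and 3.47 in AIA-hot-WTD and 4.91, 5.13 and 2.88 in AIA-hot. AIA-hot replicates 1 and 2 were high and replicate 3 was among or below the treated arrays, and the list's median was 0.35 against replicate 3 alone. The Col1a1 probe used here gave -0.78, and the other Col1a1 probes gave -1.0 and 0.00.

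Synovial fibroblast and lining genes repeated this arrangement, with 13 of 16 lower, a median of -0.41, and 0.15 against AIA-hot replicate 3. Has2, a hyaluronan synthase gene, read -1.54, -1.87 and -1.50 in AIA-hot-WTD and 0.63, -0.10 and -2.10 in AIA-hot. The matrix protease and inhibitor list had a median of -0.34, with 15 of 18 lower, and 0.25 against AIA-hot replicate 3. Mmp3, the stromelysin gene, read 2.43, 1.24 and 1.73 in AIA-hot-WTD and 3.14, 2.87 and 0.31 in AIA-hot. Mmp13, a collagenase gene, read -2.44, 2.10 and -0.26 in AIA-hot-WTD and 2.75, 3.61 and -3.75 in AIA-hot. Both overlapped.

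T and NK cell genes were lower in AIA-hot-WTD against the average AIA-hot array and against AIA-hot replicate 3 alike. By array the list averaged -1.95, -2.31 and -2.48 in AIA-hot-WTD and -1.40, -2.01 and -1.85 in AIA-hot, so the list means overlapped. Of 14 measured members 12 were lower, with a median of -0.46, and 5 of the 14 were lower without overlap, where 4.91% of all genes were. Cd8a, a co-receptor gene of cytotoxic T cells, read -3.79, -3.69 and -3.94 in AIA-hot-WTD, against -2.15, -2.71 and -3.34 in AIA-hot (difference -1.07 ± 0.39, SE; limma adjusted p = 0.9997). Klrd1, an NK cell receptor gene well above background on 2 arrays of each group, read -3.68, -4.64 and -4.31 in AIA-hot-WTD and -3.13, -3.63 and -2.79 in AIA-hot. Cd3g, a subunit of the T cell receptor complex, read -0.70, -1.36 and -1.16 in AIA-hot-WTD and 0.72, 0.37 and -0.40 in AIA-hot. Cd3d and Cd4 completed the 5, with differences of -0.47 and -0.45.

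Nkg7, a granule gene of cytotoxic cells, went the other way at 0.09, 1.86 and -0.06 in AIA-hot-WTD and 0.01, -0.73 and 0.07 in AIA-hot. The median of the T and NK list was -0.37 against AIA-hot replicate 3, with 3 of 14 higher, and lay between -0.69 and -0.38 when any 1 of the 6 arrays was left out. In the cold model the same genes had a median of 0.19 under WTD, with 9 of 14 higher. The difference between the models was not tested for lists. For Cd8a itself the difference between the effects was -1.76 ± 0.56 (SE; limma adjusted p = 0.989).

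Of the inflammatory cytokines, Il1b, the gene of interleukin-1 beta, read 0.29, -0.91 and -0.38 in AIA-hot-WTD, against 0.69, 0.16 and 0.26 in AIA-hot. The arrays overlapped, and the difference was -0.70 ± 0.32 (SE; limma adjusted p = 0.9997). Il6, the gene of interleukin-6, was well above background on 0 AIA-hot-WTD and 2 AIA-hot arrays and was at least 1.83-fold lower in AIA-hot-WTD (limma adjusted p = 0.9997). AIA-hot replicate 3 read -4.47 for Il6, within the treated range of -4.79 to -4.11. Il1rn, the gene of the interleukin-1 receptor antagonist, differed by -0.17 ± 0.47, Il18 by 0.26 ± 0.51 and Il33 by 0.15 ± 0.25 (SE). Of 18 cytokine genes listed, 8 passed the filter on dim probes, with a median of -0.10, and 0.04 against AIA-hot replicate 3. Tnf was among the others and was not tested.

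Chemokine genes had a median of -0.20, with 16 of 22 lower, and 0.05 against AIA-hot replicate 3. Ccl2, a monocyte attractant gene, read 2.07, 1.02 and 1.70 in AIA-hot-WTD and 2.99, 4.07 and 0.64 in AIA-hot. Ccl7, a close relative, read 1.56, -0.22 and 0.37 in AIA-hot-WTD and 2.41, 3.55 and -0.48 in AIA-hot. Ccl3 and Ccl5 differed by 0.05 ± 0.25 and 0.00 ± 0.59 (SE). Leaving out AIA-hot-WTD replicate 2 brought the chemokine median to 0.03.

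Type I interferon response genes were lower on average, with 17 of 19 below 0 and a median of -0.39, and 0 of 19 without overlap. They varied more within the groups than between them: the list averaged 1.35, -0.18 and 0.77 in AIA-hot-WTD and -0.01, 2.11 and 0.86 in AIA-hot. Isg15, a ubiquitin-like interferon-induced gene, read 4.35, 1.14 and 3.23 in AIA-hot-WTD and 1.93, 5.59 and 3.58 in AIA-hot. Without AIA-hot-WTD replicate 2 the median was 0.03, with 11 of 19 higher, and without AIA-hot replicate 2 it was 0.15, with 15 of 19 higher. It was -0.23 against AIA-hot replicate 3 alone.

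Macrophage genes (median 0.07, 9 higher and 8 lower) and complement genes (-0.09, 5 higher and 9 lower) lay close to the all-gene median. NF-kB feedback genes had a median of -0.14, with 10 of 12 lower. Without AIA-hot replicate 2 the NF-kB median was 0.00, with 6 higher and 6 lower. Against AIA-hot replicate 3 the macrophage, complement and NF-kB medians were 0.29, 0.24 and 0.12. The class II MHC median of -0.03 stood between unlike AIA-hot arrays: the list averaged 1.80, 1.68 and 1.93 in AIA-hot-WTD, against 1.96, 2.61 and 1.10 in AIA-hot. Its median was 0.90 against AIA-hot replicate 3, with 9 of 10 higher. It was -0.45 without that array, with 0 of 10 higher, and 0.30 without AIA-hot replicate 2, with 9 of 10 higher. Within the macrophage list Timd4, a receptor gene of resident macrophages that binds dying cells, read -0.98, -1.06 and -0.97 in AIA-hot-WTD and -1.48, -1.51 and -1.57 in AIA-hot, without overlap (difference 0.52 ± 0.24, SE; limma adjusted p = 0.9997). Msr1, a scavenger receptor gene, was also higher without overlap (0.49 ± 0.29, SE), and the other members of the list overlapped. Ribosomal protein genes, read as a check for a general shift, had a median of -0.04, also against AIA-hot replicate 3, and a range of -0.17 to 0.09. Cell cycle genes had a median of 0.21 against all AIA-hot arrays and 1.28 against replicate 3, the array on which they were lowest (-2.61). Leaving out either AIA-hot replicate 3 or AIA-hot-WTD replicate 2 brought that median to -0.24 and -0.10.

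Ephedra and aconite alkaloids act on adrenergic receptors and sodium channels, and 16 of 26 such genes were measured, with a median of 0.35 and -0.06 against AIA-hot replicate 3. Scn4b, a sodium channel beta subunit gene, read -3.28, -3.35 and -1.73 in AIA-hot-WTD and, below background, -3.94, -3.58 and -4.18 in AIA-hot. It was at least 2.11-fold higher in AIA-hot-WTD (limma adjusted p = 0.9997). Its highest reading was on AIA-hot-WTD replicate 3, the array on which muscle genes were highest too. The other Scn4b probe, well above background on 0 arrays of either group, gave a difference of -0.43. Drug metabolism and oxidative stress genes had a median of 0.18 and 0.00 against AIA-hot replicate 3. Circadian clock genes had a median of -0.12, immediate early genes -0.23, and heat shock and cold-inducible genes -0.04. The same medians against AIA-hot replicate 3 were 0.11, 0.06 and -0.02. The brightest probe of Klf6, an immediate early transcription factor gene, was lower without overlap, at 5.56, 5.49 and 5.63 in AIA-hot-WTD and 5.75, 5.87 and 6.02 in AIA-hot. The other Klf6 probes overlapped, with differences of -0.21, -0.18, -0.19 and -0.20. Klf6 was the 1 of 20 measured immediate early genes that was lower without overlap, where 4.91% of all genes were.

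**Figure D4:**
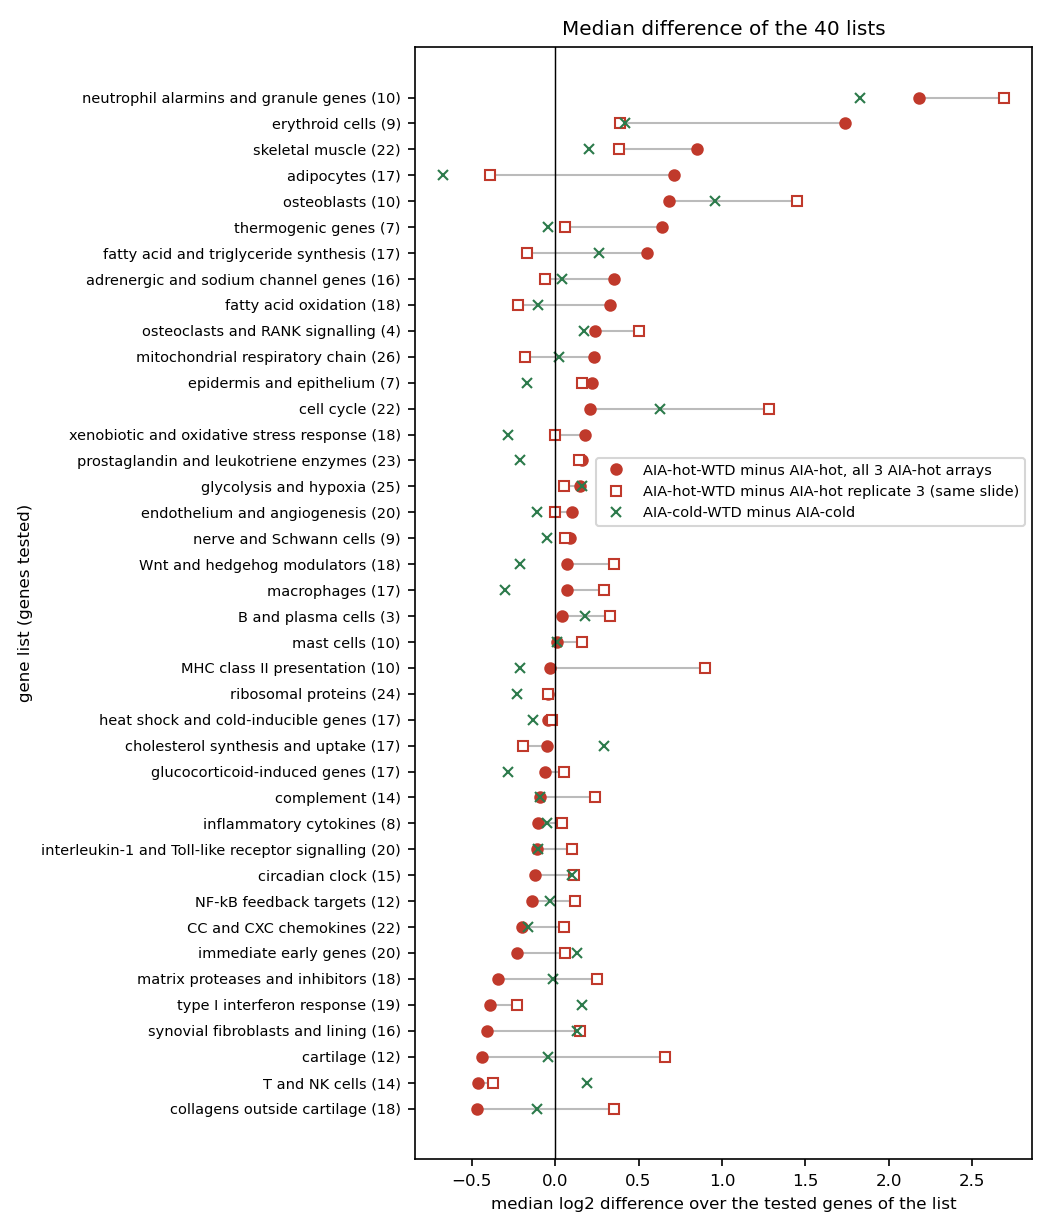
Median log2 difference (horizontal axis) over the tested genes of 40 lists (rows, number of genes in brackets). Filled circles give AIA-hot-WTD minus all 3 AIA-hot arrays, open squares AIA-hot-WTD minus AIA-hot replicate 3, and crosses AIA-cold-WTD minus AIA-cold. Neutrophil genes lie right of 0 by all 3 measures (2.18, 2.69 and 1.83), adipocyte genes lie right of 0 by the first only (0.71, -0.39 and -0.67), and T and NK genes lie left of 0 by both hot measures (-0.46 and -0.37).

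The same formula in the cold model gives values that share no array with the hot ones, but there too treatment and slide overlap in part. Between AIA-cold-WTD and AIA-cold 2 genes (0.00847%) were called, and the test of the difference between the hot and the cold effect called 0 of 23602, with 973 at an unadjusted p under 0.05. Its smallest adjusted p, 0.0702, belonged to Alox15b, a lipoxygenase gene that oxidises arachidonic acid. Alox15b was well above background on 0 AIA-hot-WTD and 0 AIA-hot arrays, so the hot model holds no readable difference for it. It read -6.92, -7.27 and -7.58 in AIA-cold-WTD, against -3.21, -1.81 and -1.86 in AIA-cold (limma adjusted p = 0.00254), and the AIA-cold-WTD readings lay below those of all 6 hot arrays, none of them well above background. The difference of effects for Alox15b was called with quantile normalization and with the deposited table, and was 1.18 with an adjusted p of 1 under limma with normexp. Zfp185 and Ptk7 had the next smallest p among genes with a symbol. Ptk7, a Wnt co-receptor gene, read -2.29, -1.73 and -2.02 in AIA-hot-WTD against -1.20, -1.18 and -1.75 in AIA-hot. It read -1.48, -1.83 and -1.45 in AIA-cold-WTD against -2.75, -2.89 and -2.20 in AIA-cold, and the difference of effects was -1.66 ± 0.32 (SE; limma adjusted p = 0.585).

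Set against the 3 control arrays, both hot groups had few called genes: 19 (0.0805%) for AIA-hot-WTD and 13 (0.0551%) for AIA-hot. These comparisons share the controls with each other and their arthritic arrays with the comparison above. The 3 control arrays lay on slide 1, which held no hot array, so group and slide cannot be told apart in these comparisons. Zbtb16 was called in AIA-hot-WTD against control, at 2.73 ± 0.45 (SE; limma adjusted p = 0.0376), and differed by 1.14 ± 0.45 in AIA-hot against control (adjusted p = 0.338). Il1b differed by 1.40 ± 0.32 in AIA-hot-WTD against control (SE; limma adjusted p = 0.0857) and was called in AIA-hot against control, at 2.10 ± 0.32 (adjusted p = 0.0367). On control replicate 1 Zbtb16 read -3.31 and Il1b -2.08, both under that array's lowest signal well above background (-1.939). A call on one side only does not show that the hot groups differ, and the direct tests above did not call either gene. Crispld2 differed from control by 0.23 ± 0.37 in AIA-hot-WTD and by 1.55 ± 0.37 in AIA-hot, and Pla2g2a by -0.36 ± 0.42 in AIA-hot-WTD and by -1.44 ± 0.42 in AIA-hot (SE), none of them called.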

How the data were processed

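Single-colour (Cy3) Agilent rat arrays were scanned into spot intensities; the submitters' processing notes name Agilent Feature Extraction 10.7. The deposited scanner files hold fluorescence intensity per spot; per the file headers the processed signal is background-subtracted on each array and not normalized between arrays. The authors' deposited series table holds values that matched the log2 processed signal (r = 0.9887 to 0.9999, column medians near 5.41); who scaled it and how is not given in the sources used here, and it served only as an alternative. Groups came from the sample labels, and members and gene lists were chosen with earlier results of these data known.

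From the processed signal, log2 values minus each array's 75th percentile were computed. Control spots and spots flagged as outliers were left out. A probe was kept if 1 of the 6 groups or more had it well above background on its 3 arrays (28275 probes), and the brightest kept probe stood for a gene: 23603 genes or transcripts, 12110 with a symbol. Names came from a RefSeq table by accession (18360 probes), symbol (3001) or synonym (392); 19259 probes kept the file's name. The lmFit and eBayes functions of limma 3.58.1 (R 4.3.3) gave all differences from 1 fit of 18 arrays with 12 residual degrees of freedom, with Benjamini-Hochberg adjustment over all genes and a threshold of 0.05. The fit was tested on simulated data with independent noise on each array and no slide effect, so that test does not bear on slide or tissue content. SE is the moderated standard error.

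Named genes were the 15 higher and 15 lower with a symbol and the smallest p (none was called), the 3 with the smallest p in the difference of hot and cold effects, up to 3 per list by p, and a list of genes followed whatever their test; other list members in the text were chosen after their values were seen. Alternatives covered quantile and normexp normalization (offset 50), the deposited table, filters, slide blocks, probe averaging and leaving out arrays. Replicate numbers follow accession order and pair nothing.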

Additional observations from a re-analysis of the deposited data

How the results depend on the processing

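No paired analysis was possible because the replicate numbers follow accession order and the labels tie no arrays together.

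The count of genes called between AIA-hot-WTD and AIA-hot was 0 under quantile and normexp normalization, the deposited table, no filter, a filter on all 6 arrays, a fit of the 6 arrays, slide as a random block, probe averaging and the omission of any 1 array of either group. It was 5, all lower in AIA-hot-WTD, with slide as a fixed block, where the only AIA-hot array is replicate 3, and 1, higher, without control replicate 1. The 5 include Zfp69 (-2.16, limma adjusted p = 0.0199). Among the settings with 0 calls the lowest adjusted p was 0.0755, without AIA-hot replicate 3.

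The difference of hot and cold effects called 0 genes as reported, 3 with quantile normalization, 3 with the deposited table, 5 with slide as a fixed block and 0 to 8 with arrays left out: 8 without AIA-cold-WTD replicate 1, 2 without AIA-cold replicate 1 and 2 without control replicate 1. Alox15b was called in 5 of these settings: its difference of effects was 5.33 (limma adjusted p = 0.0702) as reported, 4.77 with quantile normalization (9.91e-05), 4.72 with the deposited table (0.000104), 5.5, 5.79 and 5.33 without AIA-cold-WTD replicate 1, AIA-cold replicate 1 and control replicate 1 (0.0266, 0.0151 and 0.00212), and 1.18 with normexp (adjusted p = 1). The cause was not tested.

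List medians that moved by more than the replicate SD did so mostly with slide as a fixed block, the comparison with AIA-hot replicate 3. There adipocytes had a median of -0.39, fatty acid oxidation -0.22 and fatty acid synthesis -0.19. The others were -0.18 for the respiratory chain, -0.06 for adrenergic and sodium channel genes, 0.00 for xenobiotic response, 0.05 for glycolysis, 0.06 for thermogenic genes, 0.10 for Toll-like receptor signalling, 0.11 for the clock, 0.12 for NF-kB feedback, 0.15 for synovial fibroblasts, 0.24 for complement, 0.25 for matrix proteases, 0.35 for collagens and for Wnt modulators, 0.39 for erythroid cells, 0.90 for class II MHC and 1.28 for the cell cycle. The fixed block uses 1 AIA-hot array by construction. Normexp gave 0.90 for erythroid cells, -0.02 for epidermis and 0.05 for adrenergic genes, no filter gave 0.03 for epidermis and -0.26 for xenobiotic response, and the filter on all 6 arrays gave -0.36 for B cells, and for these the cause was not tested. With single arrays left out, medians ran from -0.31 to 0.20 for B cells, -0.29 to -0.04 for the clock, -0.97 to -0.23 for collagens, -0.17 to 0.00 for Toll-like receptor signalling, 0.08 to 0.25 for prostaglandin enzymes, 0.34 to 1.25 for thermogenic genes and 0.04 to 0.34 for xenobiotic response. The other 607 list values under an alternative stayed within that SD, as did 2388 differences of named genes between the hot groups, while 117 moved and 1 (Zfp69) became a call. No result turned its direction while called. Signal over background limits Il6, Mmp9, Rhag, Cd177, Aqp3, Oit3, Olr1093, Scn4b, Wnt11, Cyp2s1, Ecel1 and C5h1orf159, each well above it on 0 arrays of 1 group, and Alox15b and Gria2 on 0 of both.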
